A study of Mus musculus with 32 samples.

Results

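The genes described here are those of cysteine breakdown to taurine and of sulfide oxidation in the liver of MCAD-KO and wild-type (WT) mice. They were taken by name from the deposited count table: Csad, Cdo1, Ado, Slc6a6, Suox, Tst, Mpst and Ethe1, which are 8 of the 20076 genes in the table. Csad, Ado, Tst, Mpst and Ethe1 also stand in gene lists that the study drew from these same mice, so that the set is not independent of the data. All 8 genes passed the filter on low counts, which left 11566 genes.

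Cysteine is the branch point of sulfur metabolism in hepatocytes. Cysteine dioxygenase (Cdo1) oxidizes it to cysteine sulfinate, cysteine sulfinate decarboxylase (Csad) turns this into hypotaurine, and hypotaurine is then oxidized to taurine, which mice use to conjugate their bile acids. Ado makes hypotaurine from cysteamine, a breakdown product of coenzyme A, and Slc6a6 carries taurine into cells. Sulfide that arises from cysteine is toxic to the respiratory chain and is oxidized in mitochondria: the persulfide dioxygenase Ethe1 makes sulfite, the sulfurtransferase Tst (rhodanese) makes thiosulfate, and sulfite oxidase (Suox) makes sulfate. Mpst releases sulfur from 3-mercaptopyruvate, a product of cysteine transamination, as a persulfide.

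RNA from the livers of 32 male mice was sequenced. The mice fell into 8 groups of 4: MCAD-KO (KO for short) and WT mice had eaten a semi-synthetic diet for 6 weeks, either low in fat (LF) or high in fat (HF), and were killed fed or after a fast of 16 h. Both genotypes were C57BL/6J littermates, and the KO mice carry the Acadm knockout in the whole body, so that medium-chain acyl-CoA dehydrogenase is missing in other organs too. The labels give ages from 7.5 to 16 without a unit. Reads came from the 3′ ends of mRNAs, and levels are given as CPM, a gene's share of all counts of its library after scaling for library composition.

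A pair of mice was left out of all results below. KO HF fasted replicate 4 held 23559 CPM of 7 heart markers, against at most 25.3 CPM in the 30 mice analysed, and 767 CPM of 8 hepatocyte markers, against 39904 to 65812 CPM in those 30. WT LF fed replicate 2 held 1082 CPM of 5 stellate cell markers and 214 CPM of 4 cholangiocyte markers, against at most 574 and 39.0 CPM in the 30 mice. This leaves 3 mice in each of these groups and 4 in the other 6. Between 2031053 and 4292200 reads per mouse were counted, which gave 35 to 116 counts per mouse for Ado and 2839 to 7300 for Cdo1. Acadm lay between 8.98 and 37.1 CPM in the KO mice and between 190 and 748 CPM in the WT mice, without overlap. Markers of other organs were seen in single HF mice: WT HF fasted replicate 2 and KO HF fed replicate 1 held 15267 and 2244 CPM of 7 pancreas markers, and KO HF fed replicate 1, WT HF fed replicate 4 and WT HF fasted replicate 4 held 974.5, 537 and 223 CPM of 4 skeletal muscle markers. By the labels 16 of the 30 mice were sequenced on lane 7 and 14 on lane 8, and all 3 WT LF fed mice were on lane 8. The study's methods describe smaller pools per lane than these labels do, so the values within lanes and with lane as a term rest on the labels alone.

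Averaged over the 4 combinations of genotype and diet, fasted livers had more mRNA of both enzymes that lead from cysteine to hypotaurine. They had less of the taurine transporter and of the persulfide dioxygenase. In this average 4 of the 8 genes changed: Csad and Cdo1 rose, and Slc6a6 and Ethe1 fell. On the HF diet the log2 fold changes of Csad (0.30 in WT, 0.04 in KO) and Cdo1 (0.15 and 0.18) were not called. The test was edgeR's quasi-likelihood F test, with p-values adjusted over all 11566 genes and a threshold of 0.05. Fasting changed 18.9% of all genes, 9.77% upward and 9.14% downward, so the share among these 8 has to be read against a large response of the whole liver transcriptome. The median log2 fold change was -0.05 over the 8 genes and -0.0022 over all genes tested. In bulk liver, fewer cells of a type and less RNA per cell cannot be told apart.

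Csad encodes the decarboxylase that commits cysteine sulfinate to taurine (ENSMUSG00000023044, minus strand of GRCm38, chr15:102176999-102204724). In WT mice on the LF diet its level was 269, 165 and 126 CPM when fed and 444, 501, 539 and 373 CPM when fasted. In KO mice on the LF diet it was 464, 300, 147 and 217 CPM when fed and 1471, 707, 436 and 727 CPM when fasted. Every fasted WT LF mouse thus lay above every fed one, while 3 of the 4 fasted KO LF mice lay above all fed KO LF mice. On the HF diet the 4 fed WT mice were at 271, 173, 161 and 144 CPM and the 4 fasted ones at 232, 240, 204 and 246 CPM. The KO HF mice were at 154, 203, 125 and 153 CPM when fed and at 150, 179 and 162 CPM when fasted. On this diet the fasted mice lay within the range of the fed mice in both genotypes. In means, Csad was at 650 ± 355 CPM (SD, n = 8) in LF fasted mice, 241 ± 117 (n = 7) in LF fed, 173 ± 45.6 (n = 8) in HF fed and 202 ± 39.0 (n = 7) in HF fasted mice.

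Over the 4 combinations Csad rose 1.75-fold with fasting (log2 fold change 0.81 ± 0.16 SE, adjusted p = 0.000637). With all 32 mice kept in, Csad did not pass this test (adjusted p = 0.0699). On the LF diet it rose 2.48-fold in WT mice (adjusted p = 0.0177), a comparison in which 7.54% of all genes changed, and 2.96-fold in KO mice (adjusted p = 0.00107), in which 13.8% changed. On the HF diet its log2 fold changes with fasting were 0.30 ± 0.31 in WT mice (adjusted p = 0.862) and 0.04 ± 0.34 in KO mice (adjusted p = 1.0). Fasting changed 0.424% of all genes in WT HF mice and 0.527% in KO HF mice, and 0 of the 8 genes in either by edgeR and limma voom. At an unadjusted p below 0.05 Ethe1 was the single member in each, and DESeq2 called it in WT HF mice. The difference of the fasting effect between the diets itself passed the test for Csad, with a log2 difference of -1.27 ± 0.33 (adjusted p = 0.0361), in a comparison that called 2.46% of all genes. This call does not hold under several other settings: the adjusted p was 0.0518 with lane as a term, 0.0806 without the filter on low counts, 0.116 without the 4 mice that held over 100 CPM of pancreas or muscle markers, and as high as 0.0792 with 1 mouse left out, with 11 of 30 such fits above 0.05. The adjusted p was highest with left-out mice kept in: 0.193 with WT LF fed replicate 2 and 0.275 with all 32 mice. The WT LF call was lost without WT LF fed replicate 3 or replicate 4 (adjusted p = 0.0979 and 0.122). Keeping in WT LF fed replicate 2, a fed mouse at 503 CPM on the scale of all 32 mice, also lost this call (adjusted p = 0.184). With all 32 mice its adjusted p was 0.371.

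**Figure D1:**
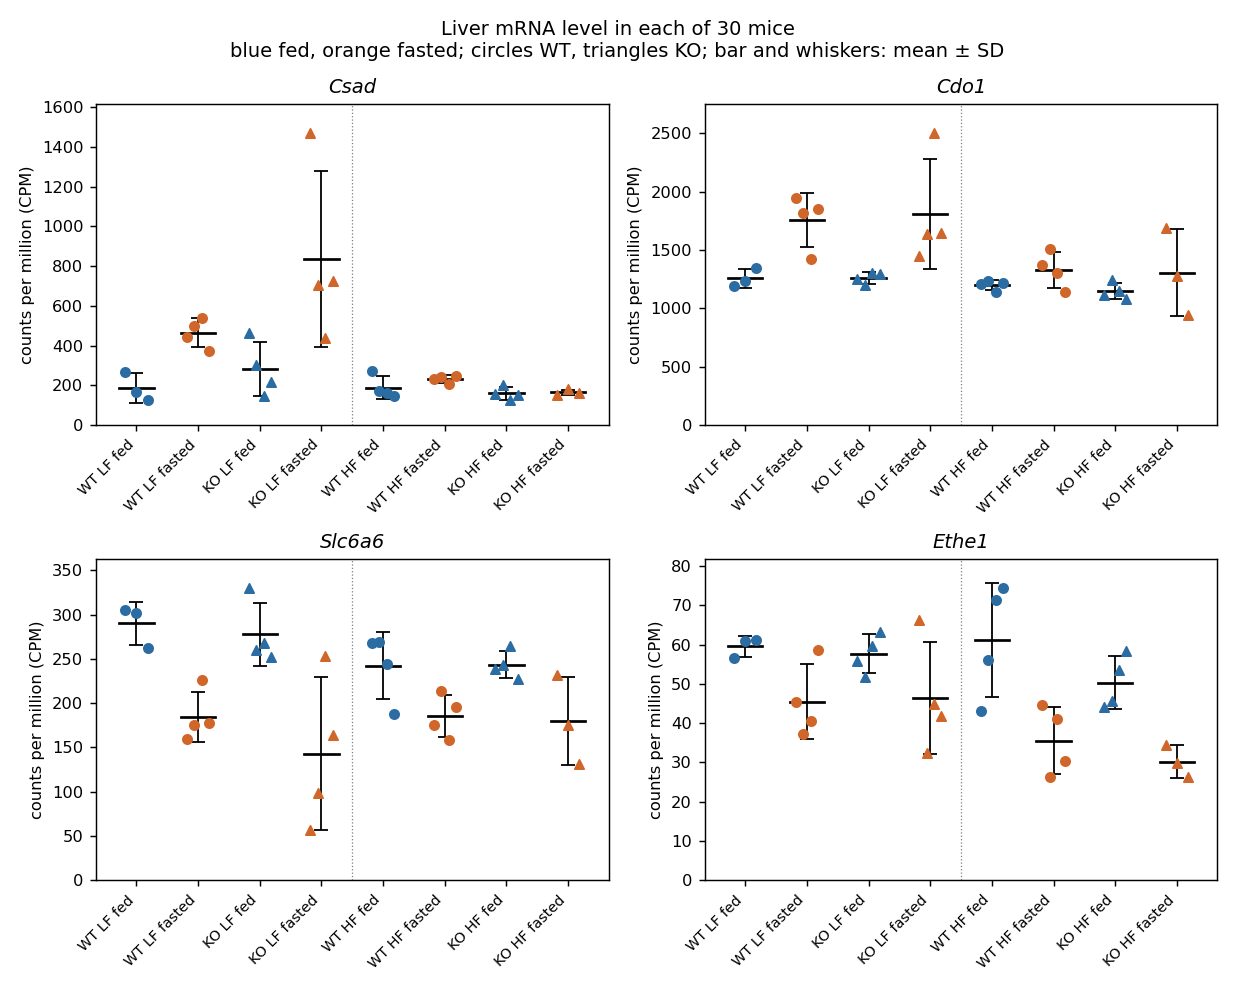
Level of Csad, Cdo1, Slc6a6 and Ethe1 in CPM (vertical axes, from 0) in each of 30 mice, by group; circles are WT and triangles KO mice, blue is fed and orange fasted, and the black bar and whiskers are the mean ± SD. The highest Csad values, up to 1471 CPM, lie in the LF fasted groups, where Slc6a6 also has its lowest values, down to 56.5 CPM.

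The models within each lane, for all genes, had a term each for fasting, diet and genotype in place of the 8 groups. Their values are therefore not means over the 4 strata, and lane 7 held no WT LF fed mouse. In these models the Csad log2 fold change with fasting was 0.37 on lane 7 (adjusted p = 0.581) and 1.14 on lane 8 (adjusted p = 0.0101), with the same sign on both. Of the marker lists, that for cholangiocytes moved with the same groups: the 4 markers summed to 8.68 to 21.3 CPM in the 8 LF fasted mice, 23.2 to 37.1 in LF fed, 22.1 to 39.0 in HF fed and 25.6 to 38.3 in HF fasted mice. Most of this sum was Spp1, and Krt19, Krt7 and Epcam stayed at or below 5.83 CPM in every mouse. The part of this list in the results was not tested. Hepatocyte markers overlapped between the same groups, at 40832 to 56815 CPM in LF fasted and 45122 to 50248 CPM in LF fed mice. Endothelial and macrophage markers overlapped too, with shifted medians. The endothelial median was 162 CPM in LF fasted mice, against 133 in LF fed, 139 in HF fed and 137 in HF fasted mice. The macrophage medians were 113, 156, 136 and 120 CPM in the same order. Their part in the results was not tested either.

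Cdo1, the dioxygenase that starts the pathway (ENSMUSG00000033022, chr18:46713193-46728395, minus strand), was present at 1190, 1234 and 1343 CPM in fed WT LF mice and at 1942, 1812, 1419 and 1848 CPM in fasted ones. The KO LF mice were at 1247, 1197, 1305 and 1292 CPM when fed and at 1446, 1636, 2502 and 1641 CPM when fasted. All 8 LF fasted mice lay above all 7 LF fed mice. The WT HF mice were at 1212, 1231, 1136 and 1215 CPM when fed and at 1373, 1509, 1299 and 1137 CPM when fasted. The KO HF mice were at 1117, 1245, 1150 and 1077 CPM when fed and at 1689, 1278 and 944 CPM when fasted. On the HF diet the fed and fasted mice therefore overlapped, with 5 of 7 fasted mice above all fed ones and 1 below them all. Over the 4 combinations Cdo1 rose 1.26-fold with fasting (log2 fold change 0.33 ± 0.08, adjusted p = 0.00295). With all 32 mice kept in, Cdo1 did not pass this test (adjusted p = 0.525). In the separate strata it passed the test in KO LF mice at 1.43-fold (adjusted p = 0.0244). The corresponding value in WT LF mice, 1.40-fold, did not pass by edgeR (adjusted p = 0.0894) or limma voom (adjusted p = 0.0667). It did pass by DESeq2 (adjusted p = 0.0396) and in an edgeR fit of these 7 mice alone (adjusted p = 0.02997). With WT LF fed replicate 2 kept in it passed at a log2 fold change of 0.71 (adjusted p = 0.0226). That mouse was at 545 CPM, against 1201 to 1355 CPM in the others of its group on the scale of all 32 mice. With lane as a term the edgeR adjusted p was 0.181, and it reached 0.555 among the other settings. The KO LF call was lost without KO LF fasted replicate 3, the mouse at 2502 CPM, at a log2 fold change of 0.32 (adjusted p = 0.188), and also without KO LF fed replicate 1 or 2 (adjusted p = 0.0561 and 0.0667). It was lost as well in an edgeR fit of the 8 KO LF mice alone (adjusted p = 0.151). With WT LF fed replicate 2 kept in the adjusted p was 0.0911, and with all 32 mice 0.651. Within the lanes the log2 fold change with fasting was 0.42 on lane 7 (adjusted p = 0.101) and 0.18 on lane 8 (adjusted p = 0.325).

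Slc6a6, the taurine transporter of the plasma membrane (ENSMUSG00000030096, chr6:91684053-91759066, plus strand), moved the other way. In WT LF mice it was at 305, 302 and 263 CPM when fed and at 160, 175, 226 and 177 CPM when fasted. In KO LF mice it was at 330, 260, 268 and 253 CPM when fed and at 56.5, 98.1, 254 and 164 CPM when fasted. The fasted WT LF mice were all below the fed ones, and in KO LF mice replicate 3 of the fasted group overlapped the lowest fed mouse, with the widest spread of all 8 groups. The WT HF mice were at 268, 269, 244 and 188 CPM when fed and at 175, 213, 158 and 196 CPM when fasted. The KO HF mice were at 238, 244, 264 and 227 CPM when fed and at 231, 175 and 132 CPM when fasted. On the HF diet the groups overlapped in both genotypes. Slc6a6 fell by 0.61 ± 0.13 on the log2 scale with fasting (1.53-fold lower, adjusted p = 0.000718). Of the single strata it passed in KO LF mice, at 1.95-fold lower (adjusted p = 0.00821), but not in a fit of these 8 mice alone (adjusted p = 0.121). In WT LF mice it passed in a fit of those 7 mice alone (adjusted p = 0.00449), but not in the model of all 8 groups. Within lanes its log2 fold change was -0.61 (adjusted p = 0.161) on lane 7 and -0.56 (adjusted p = 0.00112) on lane 8.

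Ethe1, the mitochondrial persulfide dioxygenase (ENSMUSG00000064254, chr7:24587543-24608925, plus strand), was at 56.5, 61.0 and 61.3 CPM in fed and 45.4, 37.3, 40.5 and 58.7 CPM in fasted WT LF mice. In KO LF mice it was at 55.7, 51.8, 59.7 and 63.2 CPM when fed and at 66.2, 32.4, 44.8 and 41.8 CPM when fasted. On the LF diet 6 of 8 fasted mice lay below every fed mouse, and KO LF fasted replicate 1 lay above them all. In WT HF mice it was at 43.2, 56.0, 71.2 and 74.3 CPM when fed and at 44.6, 26.3, 41.0 and 30.4 CPM when fasted. In KO HF mice it was at 44.0, 45.5, 53.5 and 58.3 CPM when fed and at 34.5, 29.96 and 26.3 CPM when fasted. Here 6 of 7 fasted mice lay below every fed mouse, and in KO HF mice the groups did not overlap. Ethe1 fell by 0.55 ± 0.10 on the log2 scale over the 4 combinations (1.47-fold lower, adjusted p = 0.000101). None of the single strata passed for Ethe1 by edgeR: the log2 fold changes were -0.77 in WT HF (adjusted p = 0.0664), -0.74 in KO HF (adjusted p = 0.155), -0.38 in WT LF (adjusted p = 0.338) and -0.32 in KO LF mice (adjusted p = 0.329). The WT HF value passed by DESeq2 (adjusted p = 0.0160) and in edgeR with age as a term (adjusted p = 0.0406). Within lanes it was -0.49 (adjusted p = 0.136) on lane 7 and -0.64 (adjusted p = 0.00216) on lane 8.

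**Figure D2:**
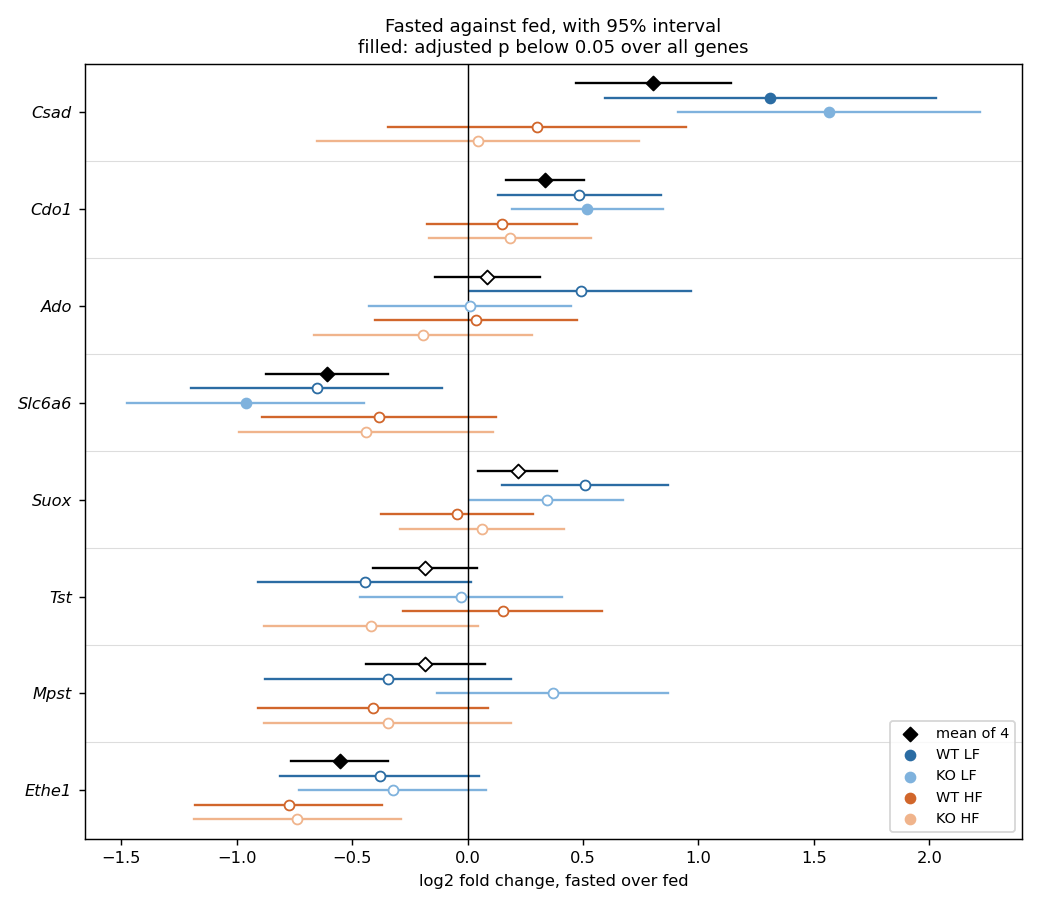
Log2 fold change of fasted over fed mice (horizontal axis) with its 95% interval for the 8 genes, averaged over the 4 combinations of genotype and diet (black diamonds) and in each combination (circles); filled symbols passed an adjusted p of 0.05. Csad has its filled symbols at 0.81, 1.31 and 1.57, and its HF values of 0.30 and 0.04 lie near 0, whereas the Ethe1 values in HF mice, -0.77 and -0.74, lie farther from 0 than those in LF mice.

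The other 4 genes did not pass the test of the mean fasting effect. Suox, the molybdenum enzyme that finishes sulfide oxidation (ENSMUSG00000049858, chr10:128669894-128674073, minus strand), came nearest, with a log2 fold change of 0.22 ± 0.08 (adjusted p = 0.0691). Its levels were 71.9 ± 9.02 CPM (SD, n = 7) in LF fed and 96.7 ± 12.8 CPM (n = 8) in LF fasted mice, where 7 of the 8 fasted mice lay above all fed ones. In WT LF mice alone it passed by DESeq2 (adjusted p = 0.0435) but not by edgeR (adjusted p = 0.0768). On the HF diet it was at 89.2 ± 13.1 CPM (n = 8) when fed and 89.9 ± 14.9 CPM (n = 7) when fasted. The difference between the diets was -0.42 ± 0.17 on the log2 scale, which did not pass (edgeR adjusted p = 0.237). For Ado, the cysteamine dioxygenase (ENSMUSG00000057134, chr10:67544511-67548955, minus strand), the mean log2 fold change with fasting was 0.09 with a 95% interval from -0.14 to 0.31. Its level was between 11.9 and 30.1 CPM over the 30 mice, and in the WT LF mice the fed values of 19.2, 19.1 and 14.8 CPM lay below the fasted values of 22.4, 26.5, 27.6 and 23.5 CPM.

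Tst (ENSMUSG00000044986, chr15:78399556-78405907, minus strand) and Mpst (ENSMUSG00000071711, chr15:78406416-78414013, plus strand) encode related sulfurtransferases and lie head to head, with 509 bp between them. Their mean log2 fold changes with fasting were alike in size, -0.18 for each, with 95% intervals from -0.41 to 0.04 for Tst and from -0.44 to 0.07 for Mpst. Tst was at 38.7 ± 8.72 CPM (SD, n = 15) in fed and 33.8 ± 7.01 CPM (n = 15) in fasted mice, and Mpst at 58.1 ± 12.6 CPM (n = 15) and 51.5 ± 18.6 CPM (n = 15). The widest spread of Mpst was in KO LF fasted mice, at 108, 36.8, 63.8 and 39.9 CPM. Replicate 1 of this group, at 108 CPM, also had the highest Csad level and the lowest Slc6a6 and Tst levels of the 30 mice. Across the 30 mice the log2 levels of Tst and Mpst had a Pearson correlation of -0.02, which is a description of mice that share their libraries and groups.

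**Figure D3:**
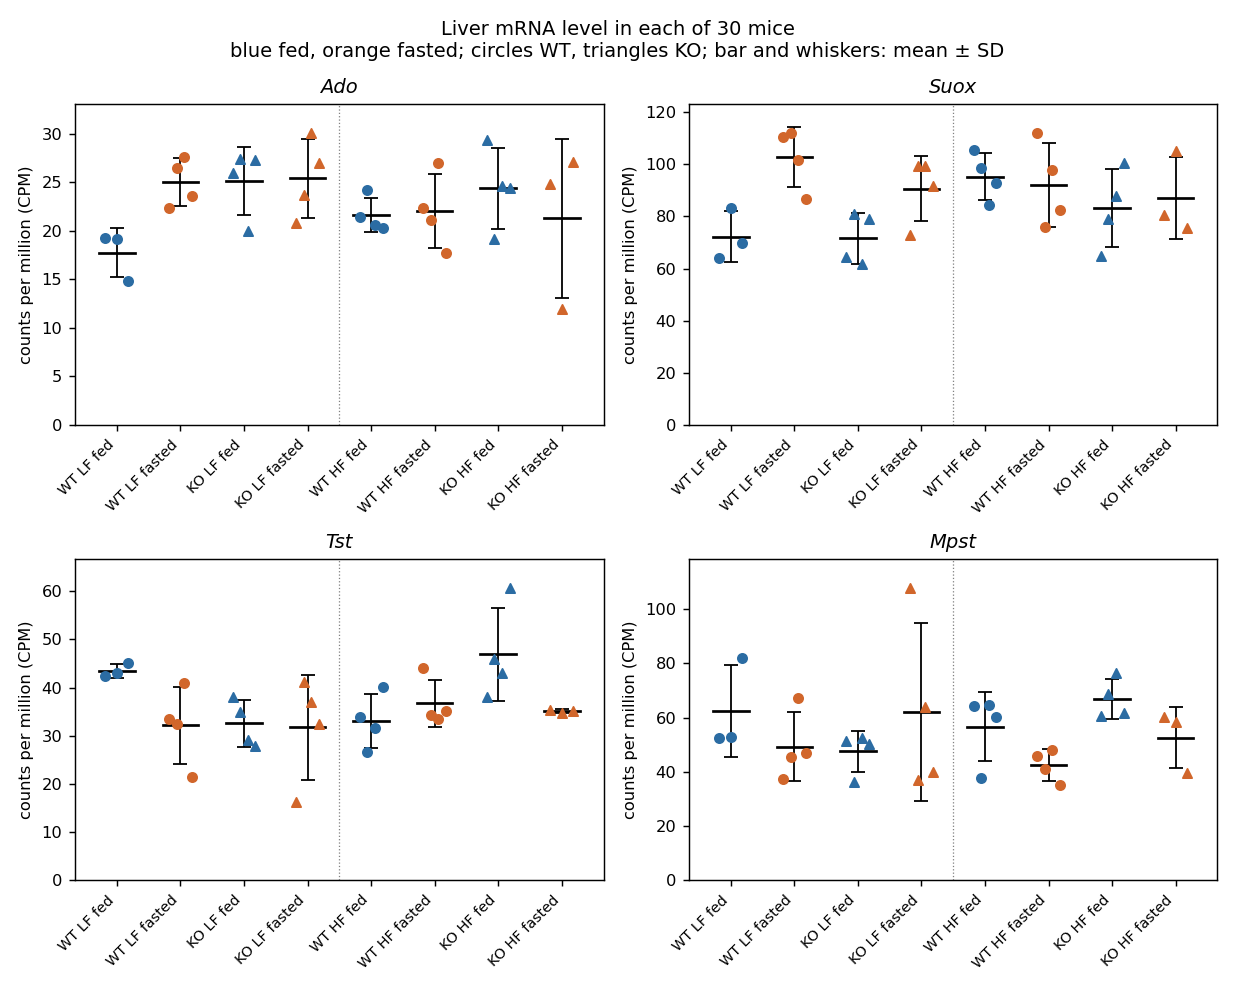
Level of Ado, Suox, Tst and Mpst in CPM (vertical axes, from 0) in each of 30 mice, by group, with symbols and colours as for the other 4 genes and the mean ± SD in black. Suox in LF mice is the pair of conditions with the clearest offset, 71.9 CPM fed against 96.7 CPM fasted, while fed and fasted mice overlap in 2 of the 4 strata for Tst and in 3 of the 4 for Mpst.

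Counted by overlap, 4 of the 8 genes had all fasted mice above all fed mice in the WT LF stratum (Csad, Cdo1, Ado and Suox) and 2 had them all below (Slc6a6 and Tst). Of all 11566 genes, 9.96% lay above and 10.2% below without overlap. In KO LF mice 1 gene, Cdo1, was above without overlap, against 6.73% of all genes. In WT HF mice all 8 overlapped, against 5.93% of all genes that did not, and in KO HF mice Tst, Mpst and Ethe1 were below without overlap, against 5.2% of all genes. With 3 or 4 mice a group, the smallest exact two-sided permutation p that these comparisons gave was 0.0286.

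Csad was also the gene with an effect of the diet by edgeR. It was lower on the HF diet by 1.05 ± 0.16 on the log2 scale, averaged over genotypes and feeding states (2.07-fold lower, adjusted p = 0.000325). No other of the 8 genes was called by edgeR, against 3.49% of all genes, while DESeq2 and limma voom called Cdo1 as well. The level in all LF mice was 459 ± 337 CPM (SD, n = 15) and in all HF mice 186 ± 43.7 CPM (n = 15). In KO fasted mice, 1471, 707, 436 and 727 CPM on the LF diet stood against 150, 179 and 162 CPM on the HF diet, 5.10-fold lower without overlap (adjusted p = 0.000886), in a comparison that called 1.68% of all genes. In WT fasted mice the values also did not overlap, but the 2.01-fold lower level did not pass by edgeR (adjusted p = 0.132, with 1.12% of all genes called) or limma voom (adjusted p = 0.0703). It did pass by DESeq2 (adjusted p = 0.0212), in an edgeR fit of these 8 mice alone (adjusted p = 0.00196) and with the replicate block (adjusted p = 0.0251). In fed mice the HF level was 1.78-fold lower in KO (adjusted p = 0.498, 0.00865% of all genes called) and the log2 fold change was -0.0012 ± 0.34 in WT (adjusted p = 1.0, 0.0778% called). By edgeR, DESeq2 and limma voom 0 of the 8 genes were called in fed mice of either genotype. At an unadjusted p below 0.05 in edgeR there was 1 in WT (Suox) and 2 in KO mice (Csad and Tst). Within lanes the mean diet effect on Csad was -1.51 on lane 7 (adjusted p = 0.0315) and -0.86 on lane 8 (adjusted p = 0.187).

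Cdo1 and Ethe1 had diet effects of -0.27 ± 0.08 (adjusted p = 0.0642) and -0.28 ± 0.10 (adjusted p = 0.147) on the log2 scale, below the unadjusted threshold but not the adjusted one by edgeR. Cdo1 lies close to the threshold: it passed by DESeq2 (adjusted p = 0.0214), by limma voom (adjusted p = 0.0446) and in edgeR with lane as a term (adjusted p = 0.0352). Slc6a6, Ado, Suox, Tst and Mpst had mean diet effects between -0.04 and 0.12 on the same scale, and all 5 intervals held 0. The median diet effect was -0.04 over the 8 genes and 0.01 over all genes tested. Suox and Ado in fed WT mice were higher on the HF diet without overlap, and Tst lower, which is 3 of the 8 genes against 8.33% of all genes. The 3 WT LF fed mice, all on lane 8, also entered the WT LF fasting and LF fed genotype comparisons. Counts of genes without overlap in these comparisons are therefore not independent. On the 32-mouse scale, left-out WT LF fed replicate 2 was at 24.9 CPM for Ado, 29.0 for Tst and 58.3 for Suox. The other mice of its group were at 15.0 to 19.4, 42.7 to 45.6 and 64.5 to 83.8 CPM. Mpst alone, 1 of the 8, was without overlap in fed KO mice, where it was higher, against 5.75% of all genes. In fasted mice Csad alone did not overlap between the diets, against 7.23% of all genes in WT and 9.36% in KO mice.

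**Figure D4:**
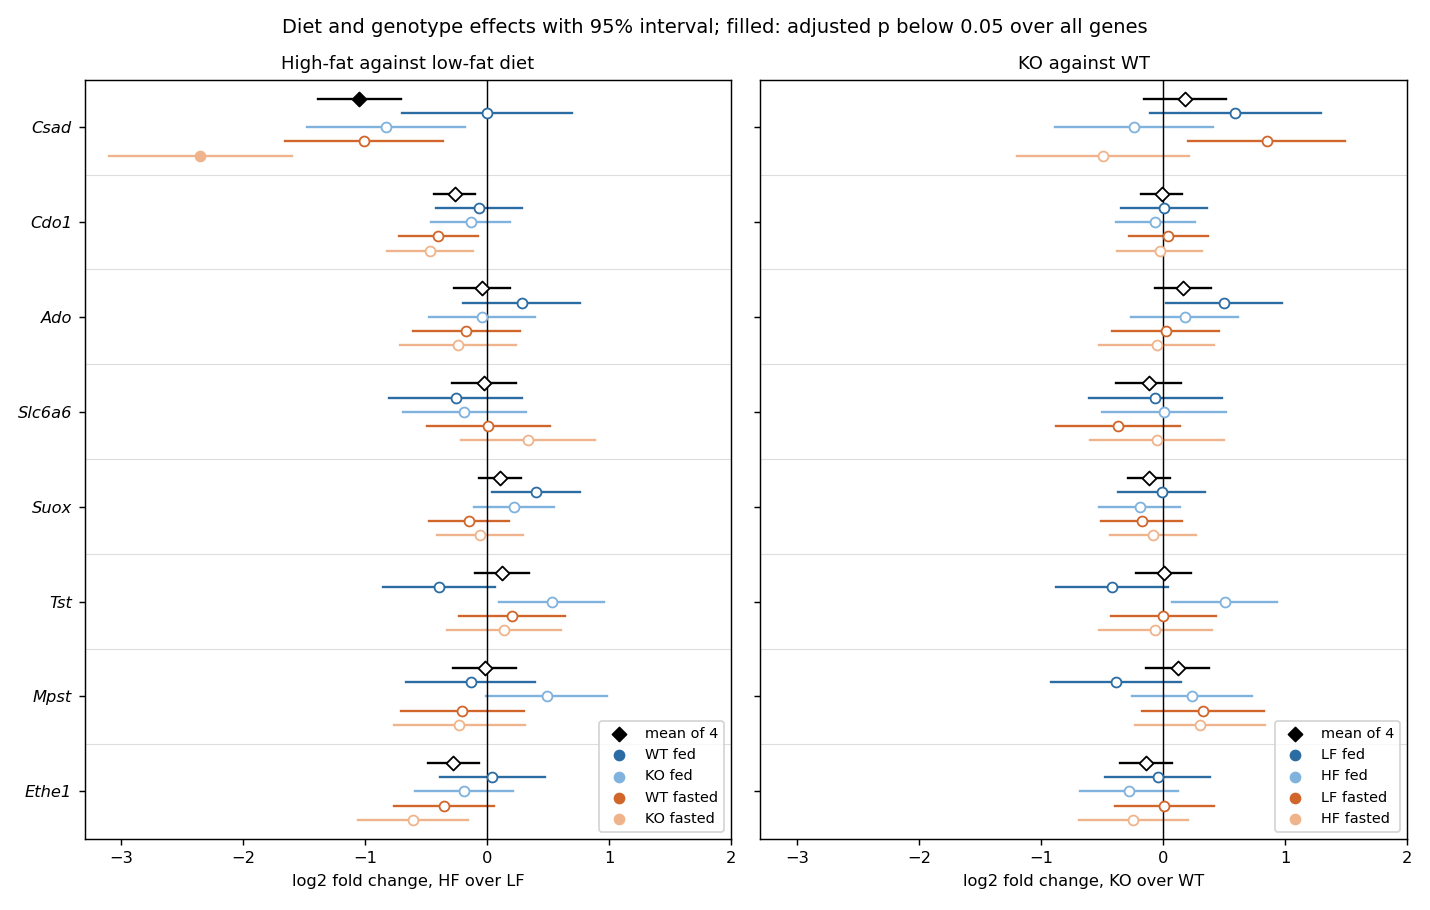
Log2 fold change of HF over LF diet (left) and of KO over WT (right), each with its 95% interval, averaged over the 4 strata (diamonds) and in each stratum (circles); filled symbols passed an adjusted p of 0.05. The filled symbols are both Csad on the left, at -1.05 for the mean and -2.35 in fasted KO mice, and no symbol is filled on the right.

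The study asked what the liver of MCAD-KO mice does differently from WT, and for these 8 genes no difference between the genotypes passed the adjusted test of single genes. By gene-set enrichment the study listed taurine and hypotaurine metabolism as raised in LF fed KO mice and lowered in HF fasted KO mice. Both passed its exploratory threshold only. A gene-set result and the tests of single genes given here are different measures. Acadm itself was the single gene of the table called in the mean genotype effect (0.00865% of all genes), at a log2 fold change of -4.44. By edgeR, DESeq2 and limma voom 0 of the 8 genes were called, and 0 had an unadjusted p below 0.05 in edgeR. The mean log2 fold changes of KO over WT lay between -0.14 for Ethe1 and 0.18 for Csad. Over the 8 genes the lowest bound of a 95% interval was -0.38, for Slc6a6, and the highest was 0.51, for Csad. Each interval holds the mean differences compatible with the values of its own gene, and is not a limit of detection.

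In each of the 4 conditions the comparison of KO with WT also called Acadm and no other gene (0.00865%), and none of the 8. At an unadjusted p below 0.05 there were Ado in LF fed mice (log2 fold change 0.50, adjusted p = 1.0), Csad in LF fasted mice (0.85, adjusted p = 0.739) and Tst in HF fed mice (0.50, adjusted p = 1.0), and none in HF fasted mice. In LF fasted mice Csad was at 464 ± 71.9 CPM (SD, n = 4) in WT and 835 ± 444 CPM (n = 4) in KO, with replicate 3 of the KO group, at 436 CPM, within the WT range. In HF fasted mice the order was the other way, with KO at 150, 179 and 162 CPM and WT at 232, 240, 204 and 246 CPM, and the groups did not overlap (exact two-sided permutation p = 0.0286, edgeR adjusted p = 0.999). Ado in LF fed mice was higher in KO than in WT without overlap, at 25.9, 27.4, 19.9 and 27.2 CPM against 19.2, 19.1 and 14.8 CPM (exact two-sided permutation p = 0.0571), and Tst was lower without overlap (exact two-sided permutation p = 0.0571). Of all genes, 6.68% did not overlap between the genotypes in LF fed mice and 5.27% in HF fasted mice. The WT LF fed mice here are the same as in the fasting and diet comparisons above.

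The effects of fasting and of diet did not differ between the genotypes for any gene of the table past the threshold (0% called in each by edgeR). At an unadjusted p below 0.05, 0 of the 8 genes differed in the fasting effect (0 also passed by DESeq2 and limma voom after adjustment) and 1, Csad, in the diet effect, with a log2 difference of -1.08 ± 0.33 (unadjusted p = 0.00277, adjusted p = 1.0). For the fasting effect on Csad the difference between genotypes was -0.0012 with a 95% interval from -0.64 to 0.64. Ranked by mean level, Csad ran from KO LF fasted over WT LF fasted, KO LF fed, WT HF fasted, WT HF fed, WT LF fed and KO HF fasted to KO HF fed, and each neighbouring pair in that order overlapped.

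Sequences upstream of the start sites are shown for the pair of called genes that had an entry in the promoter table of RefSeq (GRCm38.p6), which held 9 windows for 5 of the 8 genes (Csad, Ado, Suox, Mpst and Ethe1). Each window holds 250 bases before and 50 after a start site, and was searched on both strands for TGACGTCA (cAMP response element, in 1.79% of 32851 windows of all genes), its half-site TGACG (20.8%), GTAAACA (FOXO, 3.65%), AGGTCA (nuclear receptor half-site, 16.3%), TGACNNNGC (antioxidant response element, 12.4%), CACGTG (E-box, 7.15%), CCAAT (37.4%) and TATAAA (13.6%). TGACG is part of TGACGTCA and can overlap TGACNNNGC. Csad had 2 windows. The one farther upstream held a CCAAT on the coding strand 75 bases before the start site and TGACG 54 bases before it, both within 30 bases, and the other held none of these motifs. Ethe1 also had 2 windows, and the upstream one held a CCAAT 132 bases before its start. The stretches are given 5′ to 3′ on the strand of the gene, with the motifs in capitals.
Csad, minus strand, chr15:102205100-102205129: tgCCAATggcccatcagtgcctgTGACGtg
Ethe1, plus strand, chr7:24587399-24587428: agcggccagcccCCAATccatctccaggag

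The Csad stretch lies within the gene Zfp740 on the other strand and the Ethe1 stretch within Zfp575 on the other strand, and neither touches an exon in GENCODE vM21. The second Ethe1 window held TGACG on the other strand 37 bases after its start. In the remaining windows Suox had 3 TGACG on the other strand and 1 CCAAT, Mpst 1 TGACNNNGC in 1 of 3 windows, and Ado 1 CCAAT. A match of these letters is a description, the common ones occur in a large share of all windows, and reads from the 3′ end do not show which start site was used. Csad overlaps Zfp740 at their 5′ ends on opposite strands, and Zfp740 held 1808 counts over all 32 mice.

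The wider pathway was described by 7 lists that together hold 47 other genes, of which 45 are in the table and 41 passed the filter. Of these 41, fasting raised 5 and lowered 14, the HF diet raised 3 and lowered 1, and genotype changed 0 (edgeR, with Chac1 and Slc26a2 at an unadjusted p below 0.05). The background shares are those given above, 18.9% for fasting and 3.49% for diet, and the median log2 fold change with fasting was -0.04 over the 41 genes. With all 32 mice 12 of them were called with fasting and 0 with diet.

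The called genes of cysteine supply moved in 1 direction: 6 of 8 tested fell with fasting and 0 rose, with a median log2 fold change of -0.44. The uncalled genes of this list, Cth and Anpep, had values above 0: 0.45 ± 0.18 (adjusted p = 0.0839) and 0.18 ± 0.30 (adjusted p = 0.745). Cth was at 418 ± 49.6 CPM (SD, n = 7) in LF fed and 891 ± 413 CPM (n = 8) in LF fasted mice. On the HF diet it was at 491 ± 214 CPM (n = 8) when fed and 421 ± 113 CPM (n = 7) when fasted. Slc3a1, a subunit of cystine transport, was at 34.2 ± 8.56 CPM (SD, n = 15) in fed and 17.0 ± 7.05 CPM (n = 15) in fasted mice, a log2 fold change of -0.99 ± 0.16 (adjusted p = 1.74e-05). Cbs, which makes cystathionine from homocysteine, fell from 256 ± 40.1 to 199 ± 38.1 CPM (adjusted p = 0.000278). The aminopeptidase Lap3 fell by 0.30 on the log2 scale (adjusted p = 0.00231) and Chac2, which breaks down glutathione, by 0.58 (adjusted p = 0.00632). Of the 3 genes of glutathione synthesis 1 fell: Gclc, the catalytic subunit of glutamate-cysteine ligase, went from 457 ± 69.4 to 291 ± 104 CPM with fasting (log2 fold change -0.68 ± 0.11, adjusted p = 5.74e-06) and was higher on the HF diet by 0.42 ± 0.11 (adjusted p = 0.0165).

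Around taurine, 4 of 9 other genes rose with fasting and 2 fell. The largest change among them was in Vnn1, a pantetheinase that frees the cysteamine used by Ado: it was at 13.6 ± 4.65 CPM (SD, n = 7) in LF fed, 114 ± 62.3 (n = 8) in LF fasted, 41.4 ± 11.9 (n = 8) in HF fed and 135 ± 63.7 CPM (n = 7) in HF fasted mice. Its mean fasting effect was 5.19-fold (log2 fold change 2.38 ± 0.28, adjusted p = 1.22e-06). Its relative Vnn3 rose 1.33-fold (adjusted p = 0.00143) and Fmo1, which oxidizes hypotaurine to taurine, by 0.58 on the log2 scale (adjusted p = 0.00126). Slc36a1, a carrier of small amino acids, fell with fasting by 0.50 ± 0.10 on the log2 scale (adjusted p = 0.000148) and was higher on the HF diet by 0.38 ± 0.10 (adjusted p = 0.0193). The following genes were named after their values were seen. Baat, which joins taurine to bile acids, rose 1.26-fold with fasting (adjusted p = 0.00423), and Got1, an aspartate aminotransferase that can also use cysteine sulfinate, was 1.98-fold lower on the HF diet (adjusted p = 0.0148). Got1 was at 668 ± 384 CPM (SD, n = 8) in LF fasted, 283 ± 39.7 (n = 7) in LF fed, 261 ± 87.6 (n = 8) in HF fed and 180 ± 54.7 CPM (n = 7) in HF fasted mice.

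Among the other sulfide genes, 2 of 5 fell with fasting and 0 rose. Sqor, which takes the first step of mitochondrial sulfide oxidation before Ethe1, was at 112 ± 12.8 CPM (SD, n = 15) in fed and 73.3 ± 21.7 CPM (n = 15) in fasted mice, a log2 fold change of -0.62 ± 0.10 (adjusted p = 8.78e-06), and was higher on the HF diet by 0.38 ± 0.10 (adjusted p = 0.0236). Selenbp1, a methanethiol oxidase, fell by 0.39 ± 0.11 (adjusted p = 0.00882). In sulfate activation and transport 3 of 8 fell and 1 rose: Papss1, which makes the activated sulfate PAPS, by -0.82 ± 0.19 (adjusted p = 0.00165), the sulfate carriers Slc26a1 and Slc26a2 by -0.38 and -0.47 (adjusted p = 0.00339 and 0.0353), and the phosphatase Bpnt2, listed under its older name Impad1, by 0.29 ± 0.08 (adjusted p = 0.00549). Of the 4 genes of molybdenum cofactor synthesis, on which Suox depends, and the 4 of iron-sulfur cluster assembly, 0 were called with fasting or diet by edgeR. At an unadjusted p below 0.05 there were Gphn and Nfs1 with diet.

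**Figure D5:**
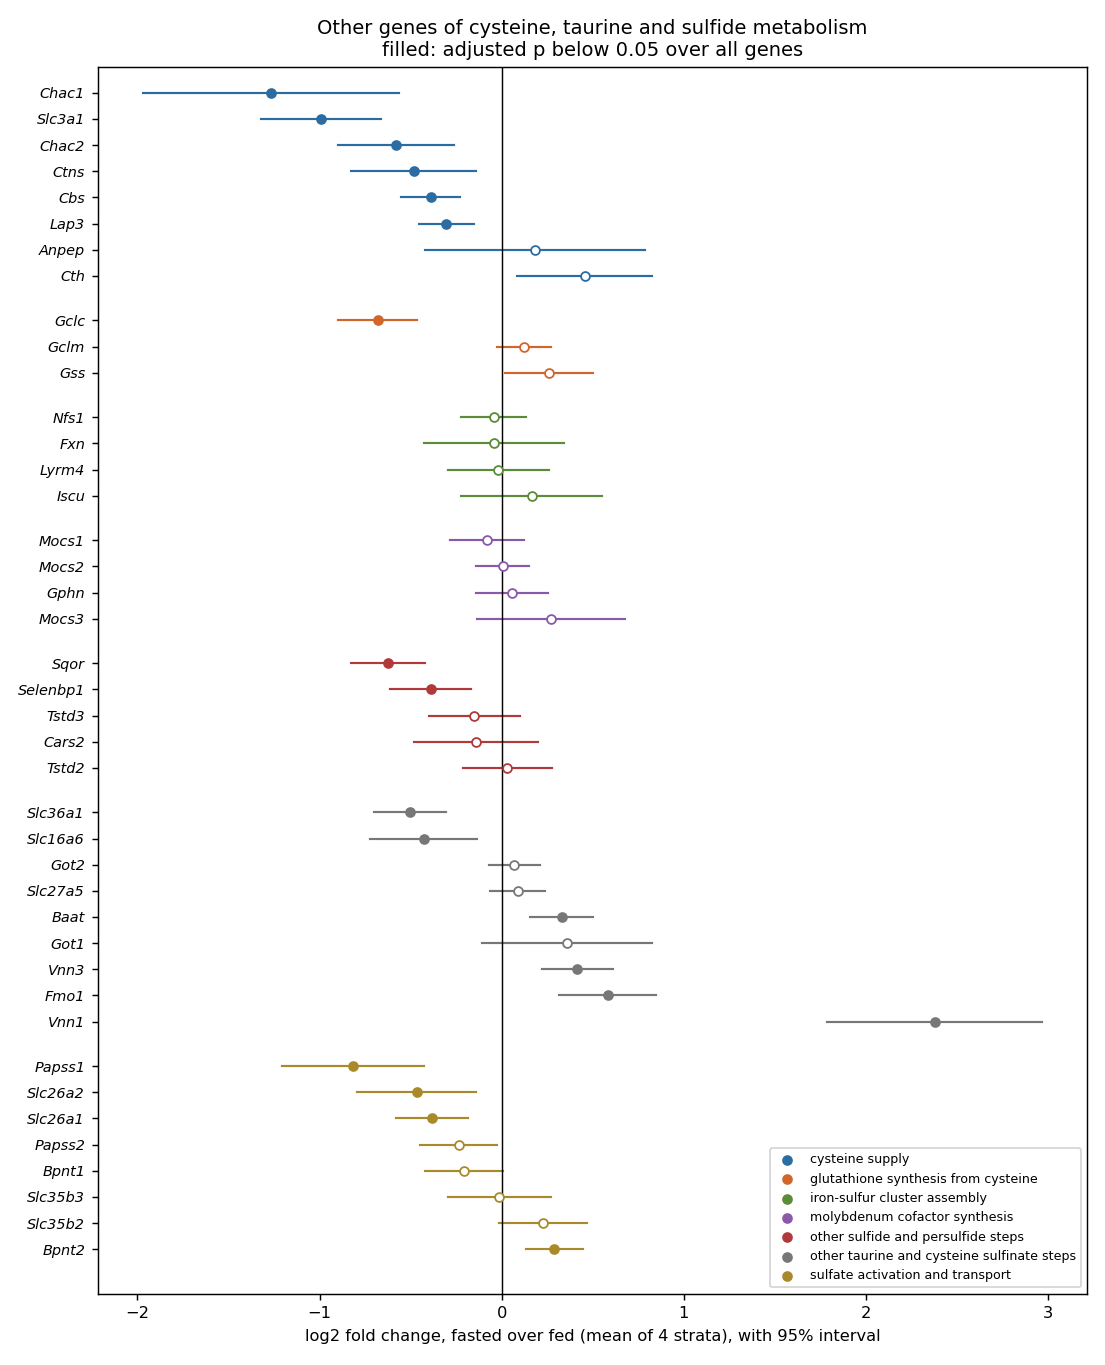
Mean log2 fold change of fasted over fed mice (horizontal axis) with its 95% interval for the 41 genes of the wider lists that passed the filter, coloured by list; filled symbols passed an adjusted p of 0.05. Vnn1, at 2.38, lies farthest to the right, and 6 of the 8 cysteine supply genes are filled and left of 0.

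For each of the 8 genes, the 3 genes most alike over the 30 mice were taken by the Pearson correlation of log2 CPM among 7361 genes with a mean of at least 10 CPM. The mice share libraries, groups and depth, so the values are a description. Csad was most like Nomo1 (0.86), Colgalt1 (0.83) and Acadvl (0.81), and Cdo1 most like Asl (0.83), Cdip1 (0.82) and Arg1 (0.80). Slc6a6 was most like Ptms (0.89), Slc25a17 (0.87) and Nrn1 (0.87), and Ethe1 most like Tubb2a (0.76), Pgd (0.74) and Qprt (0.74). Suox came with Fmo1 (0.70), Oat (0.70) and Dennd5b (0.69). Mpst came with Pgrmc2 (0.86), Aldh2 (0.81) and Sec14l2 (0.79). For Tst these were 1810037I17Rik (0.84), Msh6 (0.76) and Timmdc1 (0.74), and for Ado, at lower values, Vmp1 (0.56), Rreb1 (0.54) and Nfu1 (0.54). Among the 8 genes themselves the correlations ran from -0.58 for Csad with Slc6a6 to 0.54 for Csad with Cdo1. KO LF fasted replicate 1 had the highest Csad and the lowest Slc6a6 level, and correlations without this mouse were not computed.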

How the data were processed

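Liver RNA of 32 mice was measured as counts. According to the study's methods and the submitters' processing notes, the authors mapped single reads of 3′ libraries to GRCm38 with HISAT 0.1.5, handled alignments with SAMtools 1.2 and counted reads per gene with HTSeq 0.6.1p1 (union mode). What they deposited is this table of raw counts per gene, without normalization; the strand setting is not given in the sources used here, and 0 columns could not be assigned to a mouse. Symbols and positions came from GENCODE vM21, for 19913 identifiers.

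The members and lists were chosen with earlier results of these data known. The 2 mice named in the report were left out by the rule that defined the set. One model with the 8 groups was fitted in edgeR 4.0.16 (R 4.3.3) with TMM scaling, after filterByExpr, using its quasi-likelihood F test with the robust option, and p-values were adjusted by Benjamini-Hochberg over all 11566 genes. The ± of a fold change is its standard error, from the fit. Single values were tested by exact two-sided permutation of log2 CPM. The fit was tested on simulated data. Named were all 8 members, Acadm, up to 4 called genes per wider list by smallest p, and the 3 most correlated genes of each member. Some further genes of the lists, among them Cth and Anpep, were named after their values were seen. Members of a group are separate mice, and no 2 mice of a group had counts that agreed within sampling noise. The main fit used no pairing of mice by replicate number. Alternatives were other mice, DESeq2 1.42.0, limma 3.58.1 voom, other filters and scaling, lane, age, the replicate block, fits of 2 groups, and each mouse left out. The setting without mice with over 100 CPM of pancreas or muscle markers was chosen after seeing the data. Slc7a9 and Tstd1 were not analysed here.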

Additional observations from a re-analysis of the deposited data

Results flagged for a closer look

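In 3 of the 48 sets of 4 mice of 1 gene and group, 1 mouse lay apart from the others by Dixon's criterion, which chance alone meets in about 1 group in 20. They were Tst in WT HF fasted mice, with 1 mouse at 44.0 CPM, Mpst in WT HF fed mice, with 1 at 37.7 CPM, and Mpst in KO LF fed mice, with 1 at 36.3 CPM. None of these groups entered a called difference of these genes.

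The effect of fasting on Csad differed between the diets by a test of the difference itself, at -1.27 on the log2 scale (HF minus LF, edgeR adjusted p = 0.0361), and the settings under which this call was lost are given with it in the report.

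In the mice that were left out, 3 values lay above those of the other mice of their group. Csad was at 503 CPM in WT LF fed replicate 2, against 127 to 271 CPM in the other 3 mice of the group on the same scale. Ado was at 24.9 CPM in this mouse, against 15.0 to 19.4 CPM. Slc6a6 was at 243 CPM in KO HF fasted replicate 4, the library with heart markers, against 133 to 233 CPM. The other values of the 8 genes in these mice lay below or within the range of their group.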

How the results depend on the processing

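The results of the 8 genes were recomputed under 14 settings and 30 fits that each left out 1 mouse. Of 549 values under the 14 settings, apart from counts, 493 kept their direction and side of the threshold, 19 lost the call, 10 gained it and 27, all of uncalled values, changed sign.

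Of the 8 genes, 4 were called in the mean fasting effect, against 2 with all 32 mice and 0 on lane 7 alone. The calls lost with all 32 mice were Csad (edgeR adjusted p = 0.0699) and Cdo1 (adjusted p = 0.525). For the mean diet effect 1 was called, against 2 (Csad and Cdo1) with DESeq2, limma voom or lane as a term and 0 on lane 8 alone. Over the 4 single fasting comparisons there were 4 calls, against 2 with all 32 mice and 7 with DESeq2. Over the 4 diet comparisons there was 1, against 2 with DESeq2, with fits of 2 groups, and with the replicate block. Residuals of same-numbered mice had a median correlation of 0.017 over 98 pairs (-0.27 to 0.23). This gives no sign of a general pairing by replicate number, but cannot show whether some mice shared a litter. Replicate number also went mostly with lane, so the replicate block is in large part a lane term. The difference of the fasting effect between diets, 1 call, gave 0 with all 32 mice, 31 mice, no filter, lane as a term or the 4 mice with pancreas or muscle markers left out. Of the wider lists, 12 genes were called with fasting and 0 with diet with all 32 mice, against 19 and 4.

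With 1 mouse left out, the calls ranged from 4 to 5 for mean fasting, 1 to 2 for mean diet, 3 to 8 for the single fasting comparisons, and 0 to 1 for the difference between diets, and were 0 for genotype. The uncalled values that changed sign were, on the log2 scale, as follows. With all 32 mice they were 0.015 for Slc6a6 with diet, -0.035 for Csad and -0.052 for Tst with genotype, 0.075 for the difference of the Csad fasting effect between genotypes, and -0.30 for Csad and -0.22 for Cdo1 with fasting in KO HF mice. With 31 mice they were 0.015 for Mpst with diet, 0.044 for Cdo1 with genotype and 0.25 for the Csad difference between genotypes. That difference was also 0.0036 without the filter, 0.0025 with age as a term and 0.083 without the 4 mice with other markers. On lane 7 they were -0.17 for Ado and 0.034 for Mpst with fasting, 0.15 for Slc6a6, -0.033 for Suox and 0.17 for Mpst with diet, and -0.019 for Ado with genotype. On lane 8 they were 0.019 for Ado and 0.0029 for Mpst with diet, and -0.096 for Tst and -0.14 for Mpst with genotype. Limma voom gave 0.018 for Slc6a6 and 0.026 for Mpst with diet, the fit without the 4 mice gave 0.021 for Mpst with diet, and the replicate block gave 0.0012 for Mpst with diet and -0.0031 for Csad with fasting in KO HF mice.

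With 1 mouse left out, values that changed sign ranged from -0.097 to 0.026 for Ado, -0.093 to 0.078 for Slc6a6 and -0.069 to 0.082 for Mpst with diet, from -0.070 to 0.035 for Cdo1 and -0.035 to 0.058 for Tst with genotype, from -0.21 to 0.17 for the Csad difference between genotypes, and from -0.057 to 0.18 for Csad and -0.046 to 0.37 for Cdo1 with fasting in KO HF mice. The cause of these shifts was not tested. Low counts limit Ado most, at 35 to 116 counts per mouse.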
